A study of Homo sapiens with 12 samples.

Results

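RCC4 is a cell line from a clear cell renal carcinoma. The comparison is between RCC4 cells that have lost VHL (VHL-negative) and RCC4 cells into which VHL was put back (VHL-positive), both given only DMSO, the solvent in which the study's drug was dissolved. The libraries were chosen by their genotype and treatment labels alone: 3 of VHL-negative and 3 of VHL-positive cells, 6 of the 12 libraries. The other 6 hold the same cells given JQ1 at 5 µM; JQ1 blocks BET bromodomain proteins and is labelled a MYC inhibitor. Both lines were grown in high-glucose medium with serum and geneticin. How VHL was introduced, how many clones or passages were used and how long treatment lasted are not described in the labels, so VHL status and any other difference between both lines cannot be told apart. Nor do they say that replicates were separate cultures, and p-values then measure only the spread between these libraries, which may be technical. All 20714 genes that passed a filter on low counts, of 60663 in the table, were compared.

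VHL is the substrate-binding part of an E3 ubiquitin ligase. In the presence of oxygen, prolyl hydroxylases of the EGLN family modify the alpha subunits of the hypoxia-inducible factors (HIFs), encoded by HIF1A and EPAS1, and VHL then directs these proteins to the proteasome. Without VHL the alpha subunits persist, pair with ARNT, bind a short DNA motif, the hypoxia response element, and raise transcription of genes for glucose uptake, glycolysis, pH control, blood vessel growth and mitochondrial adjustment. VHL loss is the defining lesion of clear cell renal carcinoma, whose cells are filled with glycogen and lipid.

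Total counts per library ran from 24624980 to 32502310 in these 6 libraries. Levels are CPM, the usual depth-scaled count of a gene, on library sizes scaled by TMM, and are given per library in the order of replicates 1, 2 and 3. Differences are VHL-negative minus VHL-positive on the log2 scale, from the quasi-likelihood test of edgeR, with p-values adjusted by Benjamini-Hochberg over all tested genes. A gene is called higher or lower at an adjusted p under 0.05. At this threshold 3058 genes (14.8%) were higher in VHL-negative cells and 3299 (15.9%) were lower. A difference of at least 2-fold was called for 1204 higher (5.81%) and 1842 lower genes (8.89%). The median difference over all tested genes was log2 0.0018. Pairs of libraries correlated, over genes, at 0.9777 to 0.9909 within a line and at 0.933 to 0.9445 between the lines on log2 CPM. The first principal component, which separated the lines, held 72.5% of the variance. VHL-positive replicate 1 stood apart by the number of genes with at least 1 count, 39651 against 29953 to 32478 in the others; without it 2586 genes were called higher and 2855 lower.

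The first question was whether the labels match the targeted gene and how the HIF pathway itself differed. VHL RNA was measured at 24.9, 28.2 and 26.2 CPM in VHL-negative libraries and at 67.3, 64.6 and 78.9 CPM in VHL-positive ones, 2.66-fold lower without overlap (log2 -1.41, SE 0.124, adjusted p = 2.25e-07). The VHL-negative cells thus still held VHL RNA, and counts per gene do not tell the RNA of the native gene from that of the introduced one. HIF1A, which encodes an oxygen-regulated alpha subunit, was at 139, 127 and 115 CPM in VHL-negative and at 606, 632 and 651 CPM in VHL-positive libraries. This was a 4.97-fold lower level in the cells without VHL (log2 -2.31, SE 0.135, adjusted p = 1.41e-09). EPAS1, the other main alpha subunit, was at 169, 145 and 138 against 244, 213 and 277 CPM, 1.62-fold lower (log2 -0.70, adjusted p = 0.00116). Per kilobase of exon, HIF1A stood at 122 and EPAS1 at 33.5 CPM in VHL-positive cells, but at 24.6 and 20.6 CPM in VHL-negative cells.

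The largest rise in the pathway was that of EGLN3, a prolyl hydroxylase gene that is itself induced by HIF. It measured 29.3, 29.3 and 30.6 CPM in VHL-negative and 1.28, 1.18 and 1.26 CPM in VHL-positive libraries, 23.8-fold higher (log2 4.57, SE 0.147, adjusted p = 3.97e-12). Its relative EGLN1, the main hydroxylase of normoxic cells, was at 51.3 ± 1.77 against 58.5 ± 8.2 CPM (SD, n = 3) and did not pass the test (log2 -0.19, adjusted p = 0.272). Of 17 tested factors of the HIF pathway, 2 were higher (EGLN3 and ARNT2) and 5 lower (VHL, HIF1A, EPAS1, ARNT and CREBBP), with a median of log2 0.0097. The shares were 11.8% higher and 29.4% lower, against 14.8% and 15.9% of all tested genes. ARNT2 (log2 0.46) lost its call without VHL-positive replicate 3 (log2 0.41, adjusted p = 0.0552). CREBBP (log2 -0.69) lost it whichever of the 6 libraries was left out, at log2 -0.747 to -0.645 and adjusted p = 0.0501 to 0.0977. The RNA of both alpha subunits and of ARNT was thus lower in the VHL-negative line.

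**Figure D1:**
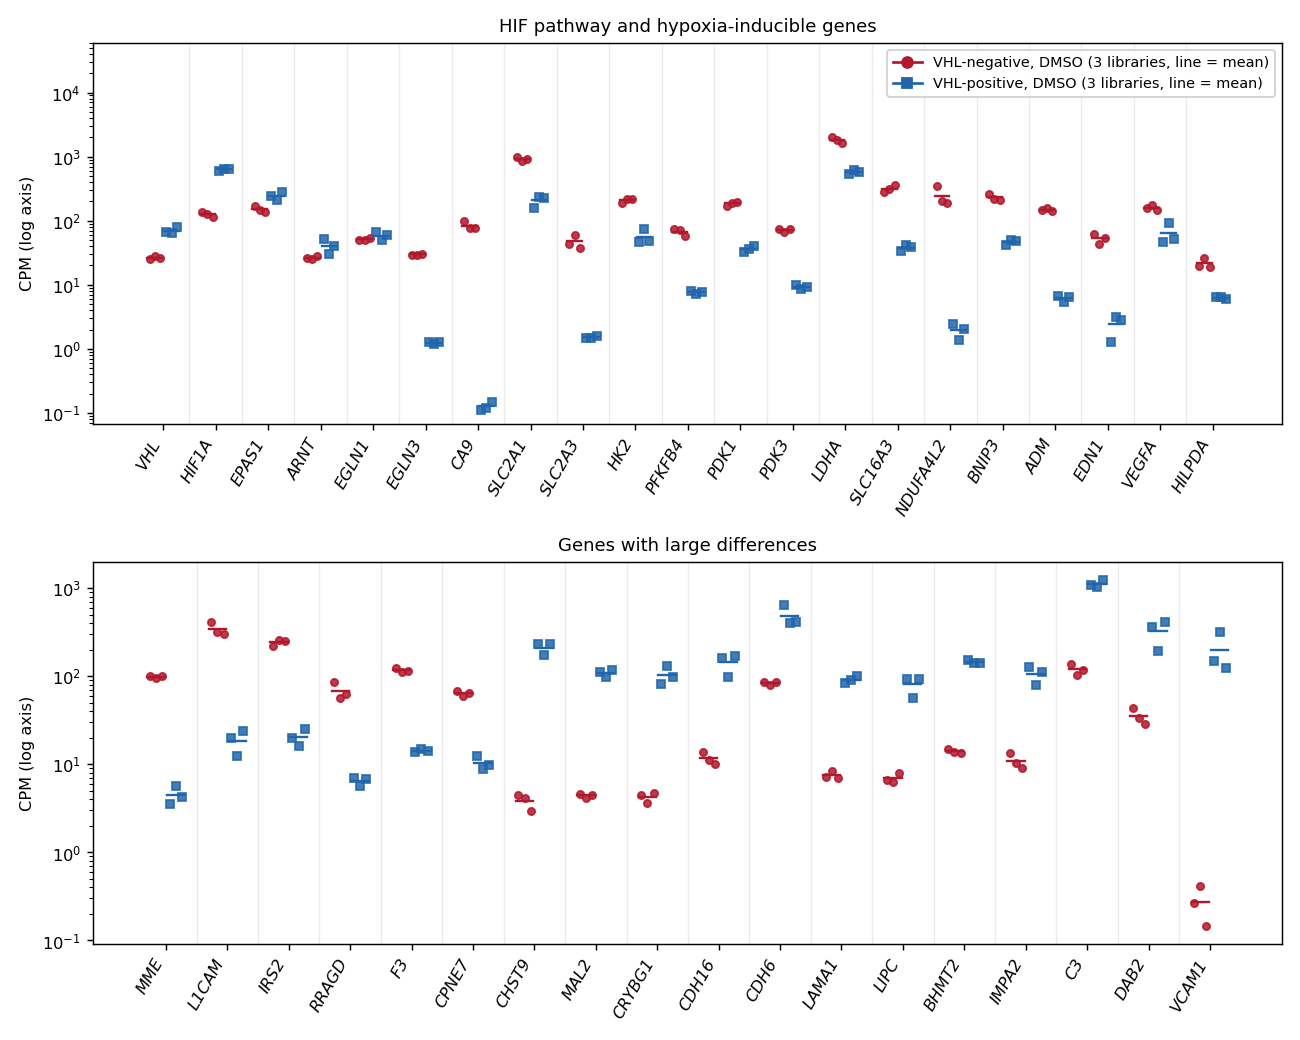
Level of selected genes in each DMSO library, in CPM on a log axis, with VHL-negative libraries as red circles, VHL-positive libraries as blue squares and group means as short lines. The upper panel shows the HIF pathway and hypoxia-inducible genes, in which VHL, HIF1A and EPAS1 lie lower and CA9, at 75.8 to 97.8 against 0.11 to 0.151 CPM, lies far higher in VHL-negative libraries; the lower panel shows genes with large differences.

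The hypoxia response element contains the letters ACGTG or GCGTG. Both were searched for in the 250 bases before the transcription start, on both strands. The reverse complement of ACGTG is CACGT, and the palindrome CACGTG matches on both. RefSeq promoters (build GRCh38.p14) with 1 listed start were available for 63 of the genes in the HIF target lists described below. Among the 41 of them that were called higher, 22 (53.7%) held ACGTG, against 4 of 22 (18.2%) among those not called or lower. The same letters were found in 18.4% of all 22114 such promoters, in 23.2% of the 8978 of tested genes, in 26.1% of those of genes called higher, in 22.9% of those called at least 2-fold higher and in 21.1% of those called lower. For GCGTG, searched in the same way, the shares were 56.1% in the 41 and 59.1% in the 22. Over the promoters of tested genes the GCGTG share was 44.3%. It was 45.2% for genes called higher, 39.4% for those called at least 2-fold higher and 39.5% for those called lower. A match is a description of the sequence and not a measured binding site. The lists were chosen with earlier results of these data known, so the shares in the 41 and the 22 describe these genes and test nothing. Printed are the upstream sequences of 5 genes that differed strongly and hold ACGTG, 5′ to 3′ in the direction of the gene. Each match of ACGTG on either strand is in capitals. The list genes ADM, APLN, PFKFB4, RORA and SLC2A1, also with 1 listed start, rose more than DDIT4 but held no ACGTG and are not printed. CA9 (chr9:35673678-35673927, plus strand) encodes a carbonic anhydrase, PPFIA4 (chr1:203026241-203026490, plus strand) a liprin, PDK3 (chrX:24465036-24465285, plus strand) a kinase of pyruvate dehydrogenase, BNIP3 (chr10:131981924-131982173, minus strand) a receptor for mitophagy and DDIT4 (chr10:72273674-72273923, plus strand) an inhibitor of mTOR signalling.
CA9: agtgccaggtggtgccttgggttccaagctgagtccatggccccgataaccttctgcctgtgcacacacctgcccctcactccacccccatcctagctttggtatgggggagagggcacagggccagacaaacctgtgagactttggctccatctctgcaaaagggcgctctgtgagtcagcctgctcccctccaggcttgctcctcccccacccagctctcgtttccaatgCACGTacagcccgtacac
PPFIA4: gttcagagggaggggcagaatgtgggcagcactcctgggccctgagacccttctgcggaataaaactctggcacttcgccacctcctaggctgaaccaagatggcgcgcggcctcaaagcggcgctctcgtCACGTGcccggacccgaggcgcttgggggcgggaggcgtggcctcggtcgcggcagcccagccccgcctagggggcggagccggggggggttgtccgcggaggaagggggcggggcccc
PDK3: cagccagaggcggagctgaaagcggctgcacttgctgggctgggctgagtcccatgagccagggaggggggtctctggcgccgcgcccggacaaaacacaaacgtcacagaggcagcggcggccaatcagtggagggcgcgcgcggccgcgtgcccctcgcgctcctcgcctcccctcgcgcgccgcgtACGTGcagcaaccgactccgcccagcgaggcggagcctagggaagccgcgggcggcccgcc
BNIP3: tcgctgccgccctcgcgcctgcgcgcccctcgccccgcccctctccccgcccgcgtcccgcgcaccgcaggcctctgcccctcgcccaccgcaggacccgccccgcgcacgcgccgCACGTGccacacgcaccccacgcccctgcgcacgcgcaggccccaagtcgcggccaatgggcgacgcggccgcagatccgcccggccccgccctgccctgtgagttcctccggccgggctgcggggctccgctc
DDIT4: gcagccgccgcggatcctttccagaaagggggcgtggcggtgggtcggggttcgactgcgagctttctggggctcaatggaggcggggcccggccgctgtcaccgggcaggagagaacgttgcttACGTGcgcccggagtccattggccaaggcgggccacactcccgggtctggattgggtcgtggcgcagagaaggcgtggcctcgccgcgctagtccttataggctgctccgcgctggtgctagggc

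Counted from the transcription start, the ACGTG match begins at position -18 in CA9, -61 in PDK3 and -125 in DDIT4, while PPFIA4 and BNIP3 hold the palindrome.

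Genes for acid and carbon dioxide handling held the largest rise among the hypoxia-inducible genes. CA9, the membrane carbonic anhydrase used as a marker of clear cell renal carcinoma, was at 97.8, 75.8 and 77 CPM in VHL-negative libraries and at 0.11, 0.118 and 0.151 CPM in VHL-positive ones. Every VHL-negative library was far above every VHL-positive one (630-fold, log2 9.30, SE 0.44, adjusted p = 1.21e-10). The VHL-positive libraries held only 11 counts of CA9 in all, so the size of the fold is uncertain. Exons of another annotated gene overlap 38.5% of the CA9 exon length, and since the strand setting of the counting is not known, reads there could belong to either gene. SLC16A3, the lactate exporter MCT4, was at 278, 309 and 359 against 33.8, 41.5 and 38.6 CPM (8.30-fold, log2 3.05, adjusted p = 1.93e-10). CA12, another membrane carbonic anhydrase, overlapped between the lines: VHL-positive replicate 2 held 19.4 CPM, replicates 1 and 3 held 7.27 and 6.86 CPM, and VHL-negative libraries 15.7 to 22.7 CPM (log2 0.76, adjusted p = 0.0688). Without that VHL-positive replicate 2, CA12 was called higher (log2 1.42, adjusted p = 6.81e-05). Cytosolic carbonic anhydrase CA2 was lower in VHL-negative cells, at 6.65 ± 1.37 against 36 ± 5.18 CPM (log2 -2.44), as was the bicarbonate transporter SLC4A4, at 76.0 ± 1.42 against 143 ± 21.7 CPM (log2 -0.91). In all, 4 of 9 tested members were higher and 2 lower; the number higher was 2 without VHL-negative replicate 3 or VHL-positive replicate 1.

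Most genes of glucose uptake and glycolysis were higher. Of 27 tested genes, 21 (77.8%) were higher and 1 was lower, with a median of log2 1.06. The largest difference was that of a glucose transporter, SLC2A3, which was at 43.6, 60.8 and 37.9 against 1.5, 1.46 and 1.57 CPM (31.3-fold, log2 4.97, adjusted p = 1.2e-11), although its reads may be shared with a near-identical paralog. SLC2A1, the transporter of most cell types, was at 992, 847 and 911 against 160, 231 and 229 CPM (4.43-fold, log2 2.15, adjusted p = 6.3e-08). Both sets of libraries were far apart, and per kilobase of exon SLC2A1 remained the more abundant of both transporters, at 194 CPM against 7.70 for SLC2A3 in VHL-negative cells.

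Among the enzymes, HK2, which phosphorylates glucose, was at 190, 217 and 218 against 46.9, 74.8 and 47.8 CPM (3.69-fold, log2 1.88). PFKFB4, which makes an allosteric activator of phosphofructokinase, was at 73.8, 70.7 and 58 against 8.11, 7.24 and 7.68 CPM (8.79-fold, adjusted p = 2.73e-11). The related PFKFB3 was at 295, 327 and 275 against 246, 204 and 275 CPM (log2 0.31, adjusted p = 0.0954). It was not called, and its libraries did not overlap only by a narrow margin, 275.08 against 274.65 CPM. Further down the pathway PGK1 (phosphoglycerate kinase) was 4.16-fold, ENO2 (an enolase) 4.07-fold and LDHA (lactate dehydrogenase) 3.20-fold higher. PDK1 and PDK3, kinases that inhibit pyruvate dehydrogenase in the mitochondrion, were 5.13-fold and 7.82-fold higher; PDK3 was at 73.5, 67.5 and 73.2 against 9.79, 8.46 and 9.12 CPM. The isoforms of the same step did not move alike. Of the phosphofructokinases, PFKP was higher (log2 1.18) and PFKM lower (log2 -0.39, adjusted p = 0.0386). Pyruvate kinase PKM, at 3068 ± 162 against 2747 ± 226 CPM, was not called (log2 0.16, adjusted p = 0.566). Nor were GPI, which isomerises glucose phosphate (log2 0.49, adjusted p = 0.127), PGAM1, a phosphoglycerate mutase (log2 0.55, adjusted p = 0.0677), and UGP2, which makes UDP-glucose (log2 -0.04, adjusted p = 0.857).

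Glycogen genes belonged to the same group: GYS1, a glycogen synthase, GBE1, the branching enzyme, and PYGL, a glycogen phosphorylase, were 2.18-fold, 2.12-fold and 2.09-fold higher. The smaller differences of abundant enzymes were less secure. The calls of GAPDH (log2 0.71) and ENO1 (log2 0.53) were lost without VHL-negative replicate 1 (adjusted p = 0.1 and 0.0633) or VHL-positive replicate 1 (0.108 and 0.0764), and ENO1 also without VHL-positive replicate 3 (0.0517). PFKM was lost without VHL-negative replicates 1 or 2 or VHL-positive replicates 1 or 3, so that no member was then lower. Several of these enzymes have processed pseudogenes with near-identical sequence, and their counts are uncertain to that extent.

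Secreted factors that act on vessels followed. ADM, which encodes the vasodilator adrenomedullin, was at 145, 159 and 140 against 6.72, 5.31 and 6.41 CPM (24.1-fold, log2 4.59, SE 0.161, adjusted p = 6.41e-12). EDN1, the precursor of the vasoconstrictor endothelin, was at 61.6, 43.2 and 53.6 against 1.28, 3.19 and 2.83 CPM (21.6-fold, log2 4.44). For both genes every VHL-negative library was many times above every VHL-positive one. The endothelial ligand apelin (APLN) was 9.78-fold and the glycoprotein hormone STC1 13.2-fold higher. VEGFA, the main endothelial growth factor, was at 157, 173 and 147 against 47, 92.7 and 51.3 CPM (2.50-fold, log2 1.32, adjusted p = 8.39e-05). ANGPTL4 was at 18.8, 25.6 and 10.8 against 2.05, 10.6 and 2.59 CPM (log2 1.88, adjusted p = 0.00375). In VEGFA and ANGPTL4, as in CA12, VHL-positive replicate 2 was the highest of its line.

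In the opposite direction, PDGFB, a growth factor for pericytes, was at 0.0385, 0.0592 and 0.0362 CPM in VHL-negative and at 7.56, 8.73 and 6.53 CPM in VHL-positive libraries (log2 -7.24, SE 0.348, adjusted p = 1.45e-10). Of 15 tested vascular factors 8 were higher and 2 lower, with a median of log2 0.49; 8 others did not reach the filter on low counts. The second lower gene, NRP1 (log2 -0.50), lost its call without VHL-negative replicate 2 or 3 or any 1 VHL-positive library (adjusted p = 0.0504 to 0.113).

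Mitochondrial genes that respond to low oxygen were led by NDUFA4L2, which replaces a respiratory chain subunit and is a known marker of clear cell renal carcinoma. It was at 351, 201 and 186 CPM in VHL-negative and at 2.41, 1.38 and 2.02 CPM in VHL-positive libraries (126-fold, log2 6.98, SE 0.364, adjusted p = 3.81e-10). The mitophagy receptors BNIP3, at 260, 220 and 211 against 41.5, 50.5 and 48.4 CPM, and BNIP3L, at 155 ± 4.4 against 47.8 ± 14.3 CPM, were 4.93-fold and 3.24-fold higher. FAM162A, a HIF-responsive mitochondrial gene, was 3.25-fold, MXI1, which opposes MYC, 2.24-fold and the mitochondrial protease LONP1 1.58-fold higher. ISCU, a scaffold for iron-sulfur clusters, was lower, at 34.8 ± 2.64 against 73.5 ± 2.58 CPM (log2 -1.08, adjusted p = 2.87e-05). COX4I1, a subunit of cytochrome oxidase, was lower by log2 -0.55, a call that was lost without VHL-positive replicate 1 (adjusted p = 0.0556). Altogether 7 of 10 tested members were higher and these 2 lower (median log2 1.04).

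Oxidative phosphorylation subunits encoded in the nucleus are a separate list and were mostly not called: 1 of 75 was higher (NDUFB11), 14 were lower and 60 did not pass, with a median of log2 -0.12. The share lower, 18.7%, was near the 15.9% of all tested genes, but the share higher, 1.33%, was well below the 14.8% of all tested genes. The lower members included NDUFV2 (log2 -1.17) and NDUFS6 (log2 -1.02), both subunits of complex I. Without VHL-negative replicate 2 or VHL-positive replicate 3 the number lower was 8, and the number higher was 3 without VHL-negative replicate 3 and 2 without VHL-positive replicate 2. The share of counts from mitochondrially encoded genes was uneven among replicates, from 9.90% to 25.3% in VHL-negative and from 17.9% to 21.8% in VHL-positive libraries, and its part in these differences was not tested.

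Collagen hydroxylation and cross-linking need oxygen, and several of the enzymes are HIF targets. Of 13 tested members 9 were higher and 1 lower (median log2 0.86). LOXL2, a lysyl oxidase, was at 891, 771 and 792 against 232, 252 and 296 CPM (3.14-fold, log2 1.65, adjusted p = 3.95e-07). P4HA1, the catalytic subunit of collagen prolyl hydroxylase, was 2.82-fold, ERO1A, an oxidase of the endoplasmic reticulum, 2.79-fold, PLOD2, a lysyl hydroxylase, 2.09-fold and LOX 1.81-fold higher. P4HA3, another catalytic subunit, was lower, at 1.91 ± 0.215 against 7.16 ± 3.09 CPM (log2 -1.91, adjusted p = 0.000159).

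JmjC histone demethylases use oxygen as a substrate, and some are induced by HIF. Here 6 of 15 were higher and 3 lower, with a median of log2 0.17. KDM4B was at 97.7, 102 and 105 against 44.8, 36.2 and 55.9 CPM (2.23-fold), KDM5C 2.02-fold and KDM3A 1.95-fold higher. KDM5B, at 89.7 ± 7.84 against 153 ± 21.5 CPM, was 1.70-fold lower.

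Of 28 other hypoxia-inducible genes, 20 (71.4%) were higher, 2 lower and 6 not called, with a median of log2 1.00. PPFIA4, a liprin, was at 61.7, 75.9 and 73 against 4.09, 3.11 and 4.82 CPM (17.4-fold, log2 4.12, adjusted p = 1.18e-10). SPAG4, a protein of the nuclear envelope, was 8.71-fold higher, and the nuclear receptor RORA 5.40-fold. NDRG1, a stress-responsive gene, was at 628, 491 and 457 against 80.4, 59.7 and 112 CPM (6.24-fold). DDIT4 was higher at 121 ± 16.1 against 28.7 ± 5.88 CPM, with 41.2% of its exon length overlapped by another gene, and the transcriptional repressor BHLHE40 was 2.95-fold higher. The lower genes were KLHL24 and VLDLR, a lipoprotein receptor. Both overlapped between the lines and lost their calls without VHL-positive replicate 1 (adjusted p = 0.0833 and 0.284) or 3 (0.0539 and 0.0567), and VLDLR also without VHL-negative replicate 1 or 2 (0.127 and 0.0923).

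**Figure D2:**
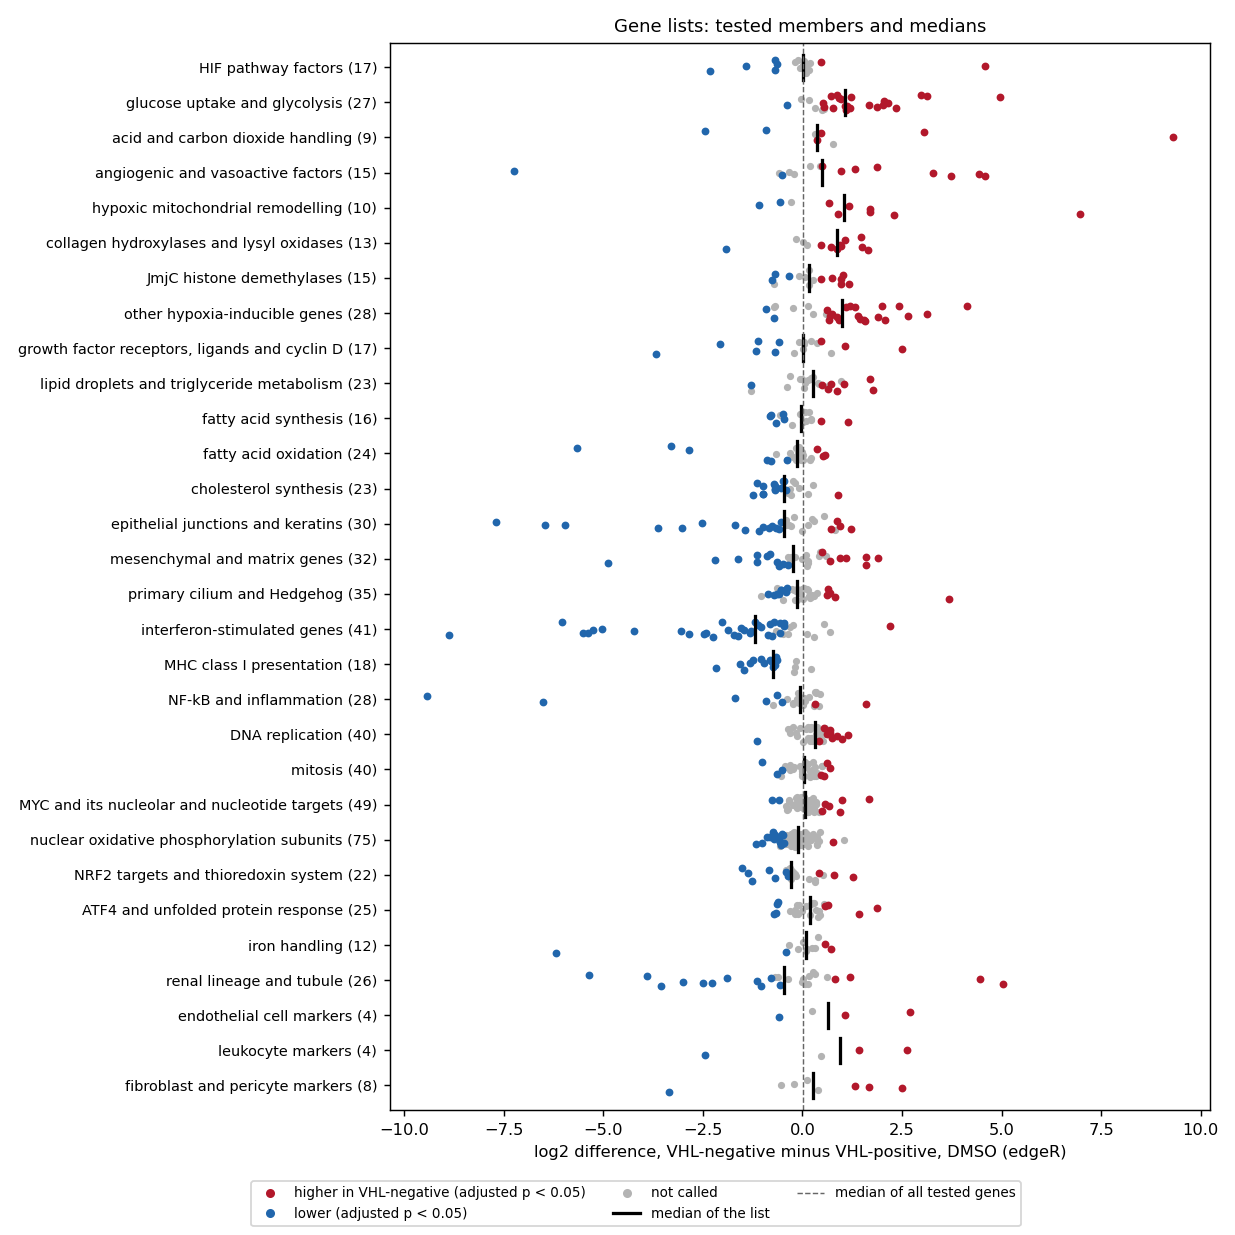
Log2 difference between VHL-negative and VHL-positive cells under DMSO for each tested member (dot) of 30 gene lists, with the number tested in parentheses. Red dots were called higher, blue dots lower and grey dots neither; the black bar is the list median, which is log2 1.06 for glycolysis and -1.18 for interferon-stimulated genes, against 0.0018 over all genes (dashed line).

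Lipid storage is the subject of the series title. Of 23 tested genes for lipid droplets and triglycerides 7 were higher and 1 lower (median log2 0.26), and without VHL-negative replicate 1 the number lower was 2. HILPDA, a droplet protein that restrains lipolysis, was at 19.8, 25.9 and 19 against 6.43, 6.45 and 5.96 CPM (3.44-fold). PNPLA3, a droplet-associated acyl hydrolase, was at 17.7, 16.3 and 17 against 5.84, 4.41 and 5.51 CPM (3.23-fold, log2 1.69, adjusted p = 6.89e-07). PLIN2, the main droplet coat protein of many cells, was at 208, 164 and 141 against 100, 108 and 101 CPM (1.66-fold, adjusted p = 0.00568). The lipins, which make diacylglycerol, moved apart, LPIN3 2.08-fold higher and LPIN2 2.45-fold lower. MGLL, which cleaves monoacylglycerol, was 1.56-fold higher.

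Fatty acid oxidation genes included a few large falls. PPARGC1A, a coactivator that drives mitochondrial and gluconeogenic genes, was at 1.2, 0.74 and 0.543 CPM in VHL-negative and at 42.7, 34.6 and 46.3 CPM in VHL-positive libraries (50.2-fold lower, log2 -5.65, adjusted p = 5.11e-11). CPT1A, which admits fatty acids to the mitochondrion and is known to be repressed through HIF in this tumour type, was at 0.848, 1.12 and 0.76 against 6.17, 9.05 and 4.73 CPM (7.18-fold lower, log2 -2.84). The peroxisomal enzyme EHHADH was 1.73-fold lower. In all 6 of 24 (25%) were lower, 3 (12.5%) higher and 15 not called (median log2 -0.14). Over all tested genes 15.9% were lower and 14.8% higher. The 3 higher genes, HADH, ECI2 and ACADVL, were small differences (log2 0.37, 0.52 and 0.57 for ACADVL, ECI2 and HADH). Without VHL-positive replicate 3 none of the 3 was called, and without VHL-negative replicate 1 or 2 or VHL-positive replicate 1 only 1 was.

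In fatty acid synthesis 2 of 16 genes (12.5%) were higher and 5 (31.2%) lower, against 14.8% and 15.9% of all tested genes. The number lower was 3 without VHL-negative replicate 2 or VHL-positive replicate 3. Only 1 was higher without VHL-negative replicate 3 or VHL-positive replicate 2 or 3. ELOVL6, an elongase, was 2.21-fold higher and the desaturase FADS2 1.73-fold lower, while FASN, the synthase itself, at 204 ± 36.9 against 299 ± 42.1 CPM, was not called (log2 -0.55, adjusted p = 0.163). Cholesterol synthesis was lower more uniformly: 13 of 23 genes (56.5%) were lower and only EBP higher, with a median of log2 -0.45. HMGCS1, an early enzyme, was at 22.4, 23.7 and 29.8 against 58.5, 55.1 and 54.1 CPM (2.21-fold lower, adjusted p = 4.37e-06).

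Growth control genes moved in both directions. MYC, a transcription factor of growth, was at 439, 305 and 283 against 125, 221 and 167 CPM (2.00-fold higher, adjusted p = 0.00159). CCND1, a cyclin known as a HIF target in this tumour type, overlapped: VHL-negative libraries were at 179, 160 and 155 CPM and VHL-positive ones at 50.8, 178 and 74.2 CPM, which did not pass (log2 0.71, adjusted p = 0.0984). Without VHL-positive replicate 2 the difference was log2 1.41 (adjusted p = 4.39e-05). CCND2, a related cyclin, was at 30.6, 21.4 and 23.1 against 116, 95.4 and 101 CPM (4.17-fold lower, adjusted p = 3.04e-08). The EGF receptor ligand TGFA was 2.08-fold higher, whereas AREG, another ligand of that receptor, was 12.9-fold lower, at 0.427 ± 0.0395 against 5.56 ± 5.47 CPM. The spread of AREG in VHL-positive cells came from replicate 2, at 11.9 CPM against 2.37 and 2.44. IGFBP3, which binds insulin-like growth factors, was 2.25-fold lower. Over the list of growth factor receptors, ligands and cyclin D, 3 of 17 (17.6%) were higher and 6 (35.3%) lower. Of all tested genes 14.8% were higher, near the share in the list, and 15.9% lower.

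Most members of the MYC target, replication and mitosis lists were not called. The shares higher were 12.2%, 22.5% and 10% in that order, against 14.8% of all tested genes. The shares lower were 4.08%, 2.5% and 7.5%, against 15.9%. Of 49 genes around MYC, its nucleolar and nucleotide targets, 6 were higher, 2 lower and 41 not called (median log2 0.07). Beside MYC and LDHA, the higher genes included IMPDH2, a guanine nucleotide enzyme (1.91-fold), and FBL, a nucleolar methyltransferase (1.59-fold). The number higher was 10 without VHL-positive replicate 2, and the number lower 4 without VHL-positive replicate 1. Of 40 replication genes 9 were higher and TYMS was lower, with a median of log2 0.31. POLA1, the catalytic subunit of the primase-associated polymerase, was at 119, 116 and 112 against 41.2, 66.2 and 48.9 CPM (2.22-fold, adjusted p = 4.15e-05). The number higher was 4 without VHL-negative replicate 3 or VHL-positive replicate 1 or 3 and was 25 without VHL-positive replicate 2; 2 were lower without VHL-positive replicate 1. TYMS has 46.6% of its exon length overlapped by another gene. Of 40 mitosis genes 4 were higher and 3 lower, and the number higher ran from 0 (without VHL-positive replicate 1 or 3) to 11 (without VHL-positive replicate 2). It was 1 without VHL-negative replicate 1 or 2 and 2 without VHL-negative replicate 3, while the number lower was 5 without VHL-negative replicate 1, 7 without VHL-positive replicate 1 and 1 without VHL-positive replicate 2. NDC80, a kinetochore gene, was the strongest of these by p, 2.03-fold lower.

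By the size of the difference alone, among genes whose mean reached 4 log2 CPM and that had no overlap between the lines, the largest rises outside the hypoxia-inducible lists were MME, L1CAM, IRS2, RRAGD, F3 and CPNE7. MME, a membrane metalloprotease of the renal brush border, was at 100, 97 and 100 against 3.54, 5.7 and 4.28 CPM (log2 4.46, adjusted p = 1.71e-10). L1CAM, a neural adhesion molecule, was at 411, 316 and 307 against 19.7, 12.4 and 23.7 CPM (18.5-fold). IRS2, an adaptor of the insulin receptor, was at 219, 258 and 254 against 20.2, 16 and 25.1 CPM (11.9-fold). RRAGD, a GTPase of the lysosomal branch of mTORC signalling, was 10.6-fold, F3, tissue factor, 8.22-fold and CPNE7, a copine, 6.24-fold higher. In each of these 6 genes the lowest VHL-negative library exceeded the highest VHL-positive one by a wide margin.

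Among the largest falls under the same rule, CHST9, a sulfotransferase, was at 4.51, 4.2 and 2.93 CPM in VHL-negative and at 232, 173 and 234 CPM in VHL-positive libraries (54.8-fold lower, log2 -5.78, SE 0.22, adjusted p = 1.2e-11). C3, the central complement component, was at 138, 104 and 118 against 1088, 1031 and 1258 CPM (9.38-fold lower). Genes of polarised epithelium and tubular metabolism made up most of the others: MAL2, a protein of apical transport, was 24.5-fold lower, the kidney cadherin CDH16 12.2-fold, LIPC, hepatic lipase, 11.5-fold, BHMT2, a methyltransferase, 10.3-fold, IMPA2, an inositol phosphatase, 9.69-fold and DAB2, an endocytic adaptor of the tubule, 9.18-fold. CRYBG1 was 24.3-fold lower, and the laminin chain LAMA1, at 7.13, 8.4 and 6.99 against 83.4, 91.1 and 100 CPM, 12.2-fold lower.

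Epithelial junction and keratin genes were lower more often than higher: 15 of 30 (50%) were lower and 4 higher, with a median of log2 -0.47. CLDN3, a tight junction claudin, was at 0.0771, 0.0592 and 0 CPM in VHL-negative and at 11.7, 8.22 and 11.7 CPM in VHL-positive libraries (log2 -7.70, SE 0.418, adjusted p = 6.31e-10). CDH1, E-cadherin, was at 0.0771, 0.0296 and 0.109 against 7.63, 3.23 and 8.46 CPM (log2 -6.45, adjusted p = 1.91e-07). Both lay near the limit of counting in VHL-negative cells and were low in VHL-positive cells too. The more abundant cadherin CDH6 was at 86.9, 80.7 and 86 against 655, 400 and 410 CPM (5.78-fold lower). DSC2, a desmosomal cadherin, had 3 counts in all VHL-negative libraries and 212 in the VHL-positive ones, a ratio of 71.8 (exact 95% interval for counting error only, 24.2 to 350.8). OCLN, occludin, was 2.71-fold, KRT18, a keratin of simple epithelium, 1.97-fold and CLDN1 3.21-fold lower. CLDN4, KRT80, KRT7 and KRT19 were higher, CLDN4 at 126, 117 and 118 against 59.9, 58.1 and 68.7 CPM (1.93-fold).

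Mesenchymal and matrix genes went both ways, 7 of 32 (21.9%) higher and 11 (34.4%) lower (median log2 -0.23). Over all tested genes the shares were 14.8% and 15.9%. Vimentin (VIM), at 1785, 1390 and 1422 against 612, 1001 and 792 CPM, was 1.91-fold, COL5A1, a fibrillar collagen chain, 3.72-fold and the repressor SNAI1 3.02-fold higher. MMP1, a collagenase, was at 1.85, 2.46 and 4.05 against 43.2, 152 and 52.9 CPM (29.7-fold lower, log2 -4.89, adjusted p = 9.47e-07), and COL4A2, a basement membrane collagen chain, 1.74-fold lower. FN1, fibronectin, overlapped, at 2995 ± 270 against 3394 ± 634 CPM (log2 -0.18, adjusted p = 0.466).

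Renal lineage and tubule genes served to check the labelled origin. Summed over 38 genes they reached 1004 to 1409 CPM in VHL-negative and 1291 to 1683 CPM in VHL-positive libraries, and 16 of the 38 were under 1 CPM in all 6, among them LRP2, SLC22A6 and AQP2. Of 26 tested, 4 (15.4%) were higher and 11 (42.3%) lower (median log2 -0.47), against 14.8% and 15.9% of all tested genes. The organic cation transporter SLC22A2 was at 0.655, 0.473 and 0.833 against 30.5, 21.2 and 28.5 CPM (41.1-fold lower, adjusted p = 2.17e-11). ABCC2, an apical efflux pump, was 5.68-fold and the phosphate and urate transporter gene SLC17A3 3.74-fold lower. Beside MME, WT1, a regulator of nephron progenitors, was higher, at 4.24, 2.87 and 2.64 against 0.219, 0.0393 and 0.0301 CPM (log2 5.05).

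Interferon-stimulated genes were the list with the lowest median, log2 -1.18: 31 of 41 (75.6%) were lower in VHL-negative cells, 9 were not called, and HERC5 alone was higher (2 higher without VHL-positive replicate 1). In 30 of the 41 every VHL-negative library lay below every VHL-positive one, which held for 21.2% of all tested genes. IRF1, a transcription factor of the interferon response, was at 20.3, 16.7 and 21.8 against 45.5, 50 and 48.4 CPM (2.45-fold lower). The effectors fell further: the antiviral ubiquitin ligase TRIM22 was at 0.848, 0.888 and 1.05 against 44.1, 31.1 and 40.6 CPM (41.4-fold lower), the GTPase GBP1 at 0.308, 0.266 and 0.833 against 14.8, 23 and 16 CPM (38.3-fold), SAMD9L 18.6-fold and the RNA sensor OAS1 8.27-fold lower. HERC5, a ligase for ISG15, was at 7.09, 7.78 and 9.12 against 1.94, 1.57 and 1.75 CPM (4.55-fold higher, adjusted p = 2.08e-07).

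Antigen presentation by MHC class I shared this direction, with 14 of 18 genes lower and 4 not called (median log2 -0.75). B2M, the invariant light chain, was at 191, 168 and 213 against 523, 449 and 456 CPM (2.50-fold lower), HLA-B, a heavy chain, 2.75-fold lower, and PSMB9, a subunit of the immunoproteasome, at 6.36, 6.12 and 7.75 against 32, 29.7 and 29.9 CPM (4.53-fold lower). Reads of HLA genes can be split among near-identical family members, so HLA-B is uncertain.

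Among 28 NF-kB and inflammation genes 20 were not called, 6 (21.4%) lower and 2 (7.14%) higher, against 15.9% and 14.8% of all tested genes. VCAM1, an adhesion molecule for leukocytes, had the largest fitted fall among list genes with counts in both lines, from 151, 320 and 124 CPM in VHL-positive to 0.27, 0.414 and 0.145 CPM in VHL-negative libraries (686-fold, log2 -9.42, SE 0.414, adjusted p = 5.04e-11). The chemokine CCL2 was at 0.193, 0.0296 and 0.145 against 5.08, 17.7 and 10.2 CPM (91.4-fold lower), and CXCL1 3.26-fold lower. The neutrophil chemokine CXCL8 was higher, at 19.2, 32.8 and 43.3 against 5.08, 18.8 and 7.59 CPM (3.04-fold, adjusted p = 0.00397). VHL-positive replicate 2 again held the highest value of its line in these 4 genes, and without it 9 of the 28 were called higher. Only 1 was higher without VHL-negative replicate 2 or 3 or VHL-positive replicate 1 or 3.

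**Figure D3:**
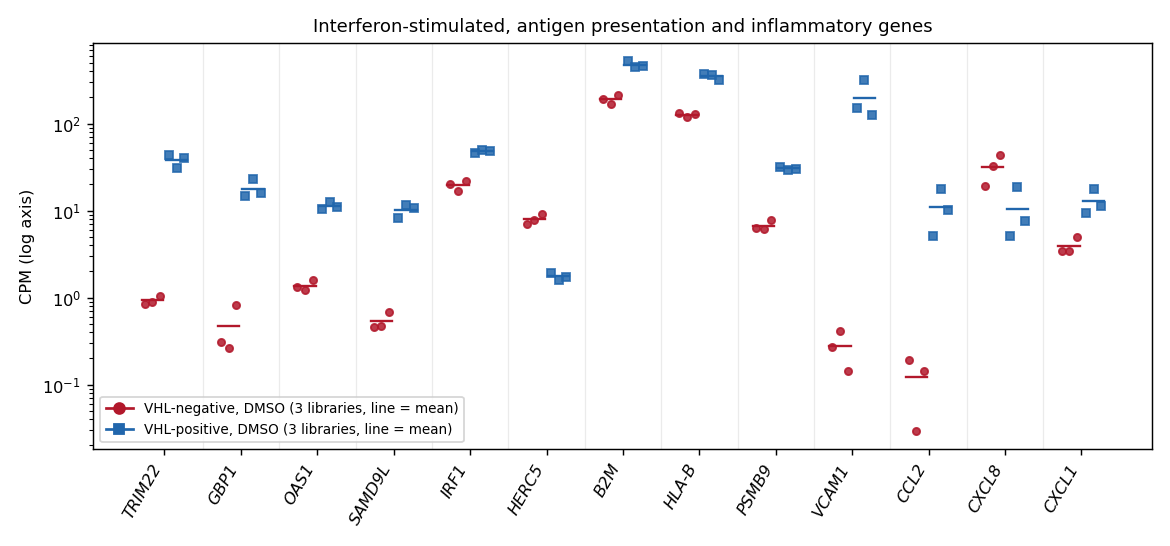
Level in each DMSO library, in CPM on a log axis, of interferon-stimulated, antigen presentation and inflammatory genes, with VHL-negative libraries as red circles, VHL-positive libraries as blue squares and group means as short lines. TRIM22, B2M and VCAM1 lie lower in all 3 VHL-negative libraries, while HERC5 and CXCL8 lie higher, CXCL8 with a VHL-positive library at 18.8 CPM close to the lowest VHL-negative one at 19.2 CPM.

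Some genes were measured in only 1 of the lines. With 0 counts in all 3 VHL-negative libraries and at least 60 counts in the VHL-positive ones there were 22 of 60663 genes, 15 of them at 1 CPM or more. In the reverse direction there were 3 and 2. An exact 0 depends on stray counts, and VHL-positive replicate 1 had at least 1 count in 39651 genes, against 29953 to 32478 in the others. Its part in the difference between 22 and 3 was not tested. NPNT, which encodes nephronectin, a kidney matrix protein, was at 0 counts in VHL-negative cells and at 17.8 to 22.4 CPM in VHL-positive ones, at least 590.8-fold lower against a floor of 3 counts over the group (0.0343 CPM). With the same floor ESRRG, a nuclear receptor, was at least 134.4-fold and the interferon-stimulated XAF1 at least 64.3-fold lower. The tetraspanin CD9 had 1 count against 1973, a ratio of 2004 (exact 95% interval for counting error only, 359.3 to 79199), and the guanine deaminase GDA 1 against 1112. FGF5, a fibroblast growth factor, had 946 counts in VHL-negative and 1 count in VHL-positive cells, a ratio of 931.3 (166.7 to 36823). CD9, GDA, ESRRG, XAF1 and FGF5 were named after their values were seen.

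Stress and metal genes completed the lists. Over all tested genes 14.8% were higher and 15.9% lower. The shares higher were 16% for ATF4 and unfolded protein, 13.6% for NRF2, 16.7% for iron and 14.3% for cilium genes. The shares lower were 16%, 31.8%, 16.7% and 22.9% in the same order. Among 25 genes of the ATF4 and unfolded protein responses 4 were higher, 4 lower (2 without replicate 1 of either line) and 17 not called; TRIB3, a pseudokinase induced by ATF4, was at 302, 285 and 335 against 81.4, 83.8 and 87.4 CPM (3.65-fold), and the amino acid transporter SLC7A5 2.65-fold higher. Of 22 NRF2 targets 3 were higher and 7 lower (3 without VHL-negative replicate 1, and 4 without VHL-negative replicate 2 or VHL-positive replicate 2 or 3). HMOX1, heme oxygenase, was 2.42-fold higher, and AKR1B1, aldose reductase, at 675, 600 and 673 against 1722, 1869 and 1973 CPM, 2.86-fold lower. Of 12 iron genes 2 were higher (1 without VHL-negative replicate 2 or 3 or VHL-positive replicate 1 or 3) and 2 lower (1 without VHL-negative replicate 2 or VHL-positive replicate 1). CP, ceruloplasmin, was 1.64-fold higher, while SLC40A1, the iron exporter ferroportin, had 2 counts in VHL-negative and 178 in VHL-positive libraries, a ratio of 90.4 (24.7 to 752.3). Of 35 cilium and Hedgehog genes 5 were higher, 8 lower (5 without VHL-positive replicate 1) and 22 not called. BBS5, a component of the ciliary BBSome, was 12.8-fold higher at low level, 1.25 ± 0.186 against 0.0981 ± 0.0605 CPM, and IFT88, an intraflagellar transport gene, 1.65-fold lower.

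Markers of other cell types were low, as a check of the culture. Of 12 endothelial markers 8 were under 1 CPM in all 6 libraries, PECAM1, CDH5 and VWF among them, and the list summed to 24.9 to 28 CPM in VHL-negative and 27 to 36.6 CPM in VHL-positive libraries. Of 13 leukocyte markers 10 were under 1 CPM in all 6, including PTPRC, and CD3E had 0 counts. The leukocyte sum was 480.8 to 596.5 against 49.7 to 145.4 CPM of which LCP1, an actin-bundling protein that carcinoma cells also make, was nearly all. Without LCP1 the sums were 3.8 to 5.2 and 2.7 to 4.33 CPM. Fibroblast and pericyte markers summed to 21.1 to 26.9 against 31.9 to 43.3 CPM, with PDGFRA, DCN and LUM under 1 CPM; within them PDGFRB was higher (log2 2.51) and RGS5 lower (log2 -3.35), with 2 members lower without VHL-negative replicate 1.

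The same contrast under JQ1 rests on 6 other libraries. Under JQ1 4082 genes (19.7%) were higher and 4397 (21.2%) lower in VHL-negative cells. Of the genes higher under DMSO, 1821 (59.5%) were also higher under JQ1, 20 were lower and 1217 were not called, and these 1821 were 44.6% of those higher under JQ1. Of the genes lower under DMSO, 2311 (70.1%) were also lower, 22 were higher and 966 were not called, and these 2311 were 52.6% of those lower under JQ1. Among differences of at least 8-fold, 173 of 193 higher and 385 of 448 lower genes were called in the same direction. In the lists, 20 of the 21 higher glycolysis genes, 18 of the 20 higher members among other hypoxia-inducible genes, 24 of the 31 lower interferon-stimulated genes and all 14 lower MHC class I genes were called in the same direction under both treatments. NDUFA4L2 differed by log2 6.76, EGLN3 by 4.08, HIF1A by -2.14 and VCAM1 by -6.66 under JQ1.

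A difference of the contrast between both treatments was called for 250 genes (1.21%). This number was 147, 165 and 124 without VHL-negative DMSO replicate 1, 2 and 3 and 142 without VHL-positive DMSO replicate 3, and DESeq2 called 1276. CA9 had log2 9.30 under DMSO and 5.57 under JQ1 (difference -3.73, SE 0.701, adjusted p = 0.0179), and EDN1 log2 4.44 and 1.28 (difference -3.16, adjusted p = 0.00178). The CA9 value under DMSO rests on 11 counts in the VHL-positive libraries. The contrast was larger under JQ1 for VEGFA, with log2 1.32 and 2.83 (adjusted p = 0.0163).

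**Figure D4:**
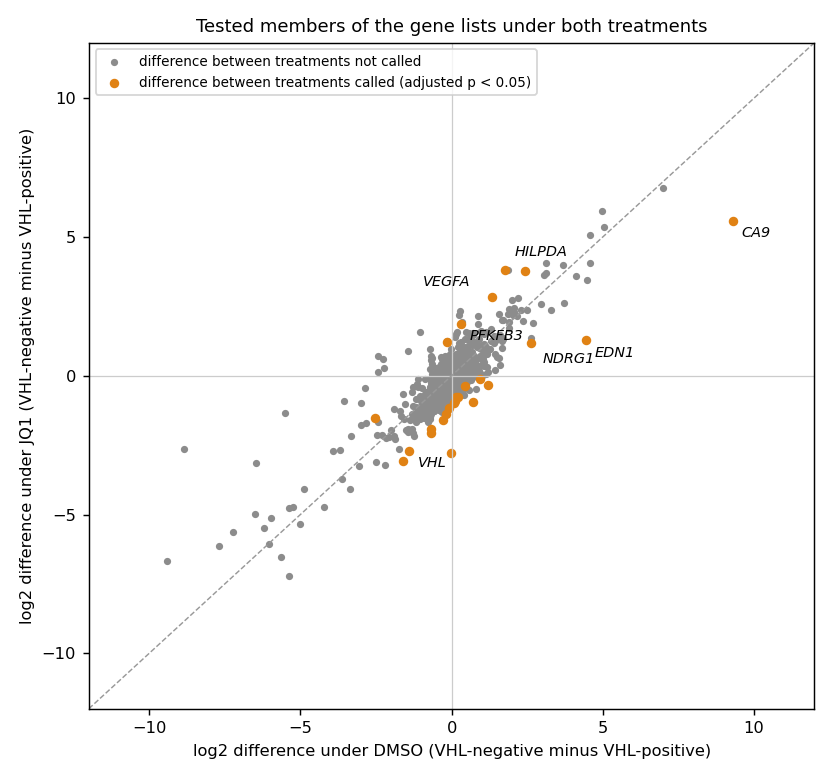
Log2 difference between VHL-negative and VHL-positive cells under DMSO (horizontal axis) and under JQ1 (vertical axis) for every tested member of the gene lists, with the line of equal values dashed. Orange dots are genes whose difference between both treatments was called; CA9 lies at 9.30 and 5.57, HILPDA at 1.78 and 3.79.

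Differences were also uneven over the chromosomes. Among the 8148 genes whose mean reached 4 log2 CPM, the median difference was log2 -0.386 on chromosome 18 (129 genes, 50.4% lower and 6.20% higher), -0.365 on chromosome 5 (384 genes, 44.5% lower) and -0.305 on chromosome 13. It was log2 0.319 on chromosome 14 and 0.409 on chromosome X (264 genes, 50.4% higher and 6.82% lower), against 0.028 over all 8148. All 3 libraries of a line showed these medians on the same side. Under JQ1 the medians were log2 -0.587 on chromosome 18 and 0.272 on chromosome X. DNA copy number was not measured in the data used here.

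**Figure D5:**
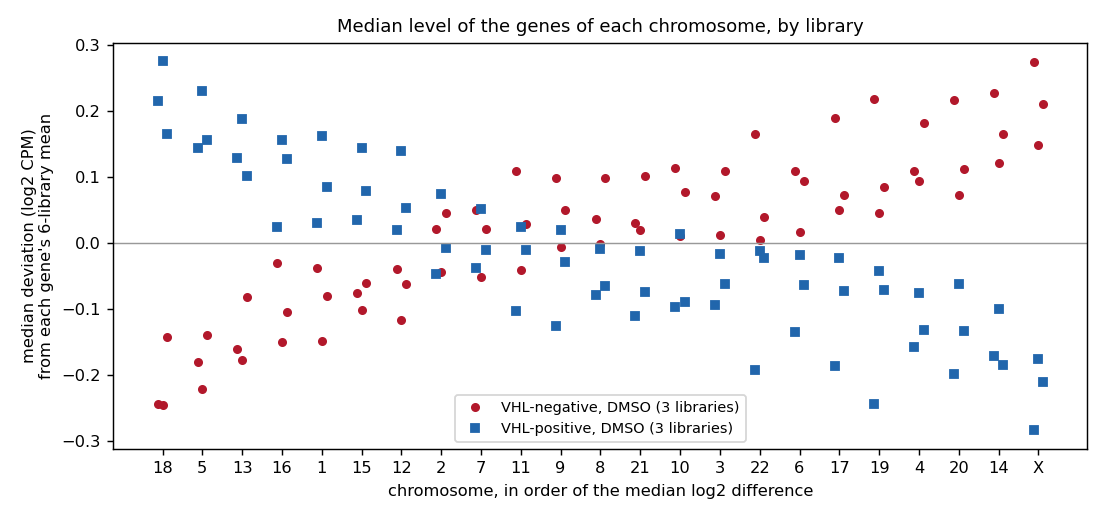
Median over the genes of each chromosome of the deviation of a library from each gene's mean over the 6 DMSO libraries, in log2 CPM, with VHL-negative libraries as red circles and VHL-positive libraries as blue squares. Chromosomes are in order of the median difference, from 18 (log2 -0.386) to X (log2 0.409), and at both ends the 3 libraries of a line lie together.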

How the data were processed

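RNA of 12 libraries was sequenced by the submitters, who deposited 1 table of read counts per gene. Per the submitters' processing notes, STAR 2.7.8, Subread 2.0.3 with featureCounts, DESeq2 1.30.1 and the build GRCh38 were used. Their order, the annotation and the strand setting are not given in the sources used here, so reads of overlapping, antisense or near-identical genes could be assigned to either gene.

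From the deposited counts, edgeR 4.0.16 (R 4.3.3) was fitted with TMM scaling, its default filter on low counts and a mean for each of the 4 groups of 3 libraries; all 12 libraries shared the estimate of spread (common biological coefficient of variation 16.9%). Contrasts were tested by quasi-likelihood with Benjamini-Hochberg adjustment at 0.05 over 20714 genes, which held 99.9% of the counts. CPM used TMM-scaled library sizes, and log2 CPM a prior count of 2. Symbols matched 60462 of 60663 identifiers, and exon overlaps came from GENCODE 29. Genes were grouped by 30 lists of 817 entries, described by counts and medians only. The members and lists were chosen with earlier results of these data known. The rule for named genes took VHL, HIF1A, EPAS1, MYC and HILPDA, all members of the first 10 lists, the up to 6 members of each other list with the smallest p, the 12 largest rises and falls among called genes of at least 4 log2 CPM whose libraries did not overlap between the lines, and genes of that level with 0 counts in 1 line. Named outside it, after their values were seen, were ECI2, ACADVL, FASN, KRT18, CLDN1, CLDN4, KRT80, KRT7, KRT19, VIM, COL4A2, FN1, IRF1, ESRRG, XAF1, CD9, GDA and FGF5. Alternatives were DESeq2 1.42.0, other scaling, filters, thresholds and sample sets, a replicate block, and leaving out each library. The scripts were tested on simulated data. Depth sets the precision for low counts, and intervals cover counting error only. Results of some items are not reported here.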

Additional observations from a re-analysis of the deposited data

Results flagged for a closer look

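The 166 genes named in the text were checked for a VHL difference that itself differed between JQ1 and DMSO. This was called for 16 of them, by the quasi-likelihood test of edgeR, with p-values adjusted by Benjamini-Hochberg over the genes tested. List members that the text does not name were not counted here. They include 2 members of the list of growth factor receptors, ligands and cyclin D with such a call. Values are the log2 difference under JQ1 minus that under DMSO. It was -1.29 for VHL (adjusted p = 0.00161), which was lower in VHL-negative cells by log2 -1.41 under DMSO and -2.70 under JQ1.

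Among hypoxia-inducible genes the value was -3.73 for CA9, -3.16 for EDN1 and -1.45 for NDRG1 (adjusted p = 0.0202), all higher in VHL-negative cells under both treatments and by less under JQ1. It was 1.57 for PFKFB3 (adjusted p = 0.000872), which was not called under DMSO and had log2 1.88 under JQ1. It was 1.5 for VEGFA, 1.33 for RORA and 2.01 for HILPDA (adjusted p = 6.6e-05), all further apart under JQ1. Tissue factor, F3, had -1.33, from log2 3.04 to 1.71.

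Of epithelial and matrix genes, LAMA1 had -3.63 (adjusted p = 3.66e-07), from log2 -3.61 to -7.24. BHMT2 had -0.948 and CDH6 1.00. CLDN4 had -1.08 and KRT7 -1.54, both higher under DMSO and not called under JQ1 (log2 -0.128 and -0.328). FN1 had -1.19 and was called lower under JQ1 only (log2 -1.37). CP had -1.67 and changed side, from log2 0.71 to -0.962 (adjusted p = 0.000181 under JQ1). With the replicate number as a block, the values of CDH6 and KRT7 did not pass (adjusted p = 0.0529 and 0.0554). The only alternatives tried for these values were that block and DESeq2, so how each depends on a single library was not tested.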

How the results depend on the processing

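Deviations from the group means correlated at -0.26, -0.0942 and -0.0282 between same-numbered libraries of the lines. Between libraries of different number they correlated at -0.148 to 0.203. Same-numbered libraries were thus not more alike, but 3 libraries a line are too few to exclude a pairing. With the replicate block 2981 genes were higher and 3210 lower. The DMSO libraries alone, a fit with fewer samples, gave 2514 higher and 2943 lower genes without the block. These shared 80.2% of the higher and 86.2% of the lower calls. With the block added to that fit, the numbers were 1869 and 2260. An adjusted p under 0.01 gave 1922 higher genes under DMSO, 2447 under JQ1 and 47 for the difference between treatments. That last count was 1276 with DESeq2, 1336 with no filter on low counts and 124 to 345 without 1 library. Protein-coding genes alone gave 717 genes at least 2-fold higher, since fewer genes were tested. Without 1 library, 2283 to 3144 genes were higher and 2713 to 3287 lower. Of the calls, 60.7% to 99.8% of higher and 68.1% to 99.5% of lower genes were shared with an alternative. Of 156 genes named in the text that were called, 143 kept the call in each alternative fitted and 13 lost it in at least 1. Of these 156, 0 changed direction under any, and the cause of the losses was not tested. UGP2, not called, changed sign: log2 0.023 with total counts alone and -0.136 to 0.047 over the fits without 1 library. Depth limits genes near 0 counts, whose folds are bounds or wide intervals.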
